A study of Rattus norvegicus with 9 samples.

Results

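Lymphocytes in rat liver RNA were followed through 9 marker genes, chosen by name from the deposited table of 32883 genes: the T cell genes Cd3d, Cd3e, Cd4 and Cd8a, the B cell genes Ms4a1 and Cd79b, and the cytotoxic cell genes Nkg7, Prf1 and Gzmb. All 9 had 1 row each in the table. Liver RNA came from 9 male Sprague-Dawley rats, 3 normal control rats (N1, N3 and N12), 3 DEN model rats (M13, M17 and M24) and 3 PZH administration rats (G27, G28 and G42). The normal rats received a normal diet. The DEN model and PZH administration rats both received the liver carcinogen diethylnitrosamine (DEN), at 0.01% by weekly injection into the abdomen over a course of 16 weeks, and the latter also received Pien-Tze-Huang (PZH), a traditional Chinese formula. The sources used here do not give the rats' ages, nor which PZH dose and which collection week the sequenced rats had. In the labels M rats carry the same treatment tag, PZH, as G rats, so groups were taken from the first letter of the rat's name together with the study's list of 3 groups of 3 rats.

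T cells recognise antigen through a receptor whose signal is carried into the cell by the CD3 chains, and CD4 and CD8 are the coreceptors that bind MHC class II and class I molecules. B cells signal through CD79 proteins bound to their surface antibody and carry CD20, the product of Ms4a1. Cytotoxic T cells and natural killer (NK) cells kill target cells by releasing perforin (Prf1) and granzymes from granules in which Nkg7 protein also lies. The liver holds a resident population of these cells and gains more of them in inflammation. In rats CD4 is also carried by monocytes and macrophages, and CD8 alpha by many NK cells, so neither marks T cells alone. In bulk tissue, a change in the number of cells of a type cannot be told apart from a change in RNA per cell.

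In the deposited coordinates, whose build is not given in the sources used here, Cd3d (chr8:49282460-49287110) and Cd3e (chr8:49297608-49308806) lie next to each other on chromosome 8. Gzmb is listed over 144626 bases (chr15:36327721-36472346), a span that also holds LOC691695, and reads of near-identical granzyme copies may be split, so its counts are uncertain. RefSeq held a promoter window for 6 of the 9 markers on build GRCr8. The 250 bases before the start site are shown for 2 T cell genes that were higher in the DEN model group (Cd3e and Cd8a) and for 2 genes of killing that were not called higher (Prf1 and Gzmb). Capitals mark GGAAG, the core bound by ETS factors, and TGTGGT, the core bound by RUNX factors, on either strand (CTTCC and ACCACA in reverse). The marked matches do not overlap each other. Both families of factors act in lymphocytes.
Cd3e, chr8:54211771-54212020, minus strand: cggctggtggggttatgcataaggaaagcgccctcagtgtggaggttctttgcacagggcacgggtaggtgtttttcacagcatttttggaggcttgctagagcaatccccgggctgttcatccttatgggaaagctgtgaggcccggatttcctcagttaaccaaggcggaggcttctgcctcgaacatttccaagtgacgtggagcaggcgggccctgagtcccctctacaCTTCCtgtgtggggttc
Cd8a, chr4:104923866-104924115, plus strand: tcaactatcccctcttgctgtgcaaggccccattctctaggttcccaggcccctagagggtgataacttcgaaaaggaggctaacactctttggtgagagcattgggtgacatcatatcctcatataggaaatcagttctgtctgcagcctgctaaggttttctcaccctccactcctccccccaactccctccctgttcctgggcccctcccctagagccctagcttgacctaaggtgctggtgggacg
Prf1, chr20:29788790-29789039, plus strand: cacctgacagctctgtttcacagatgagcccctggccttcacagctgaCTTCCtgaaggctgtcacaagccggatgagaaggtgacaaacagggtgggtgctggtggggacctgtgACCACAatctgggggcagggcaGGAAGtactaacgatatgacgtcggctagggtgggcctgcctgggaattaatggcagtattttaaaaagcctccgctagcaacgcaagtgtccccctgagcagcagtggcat
Gzmb, chr15:34462470-34462719, minus strand: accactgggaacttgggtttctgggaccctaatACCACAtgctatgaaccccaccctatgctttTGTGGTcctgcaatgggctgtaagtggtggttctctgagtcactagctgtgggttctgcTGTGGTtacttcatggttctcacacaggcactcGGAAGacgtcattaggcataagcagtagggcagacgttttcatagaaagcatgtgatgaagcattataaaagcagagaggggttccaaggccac

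The RUNX core stood in the windows of the 3 cytotoxic genes among the 6 matched markers, with 3 matches in Gzmb and 1 each in Prf1 and Nkg7, and in none of the windows of Cd3d, Cd3e and Cd8a. Of all 33469 RefSeq windows of this length, 14.5% held it. The ETS core stood in 5 of the 6 windows, the exception being Cd8a, and in 63.3% of all windows. These matches describe letters in a window and not binding. The window of Cd3d is not shown. Where it lies relative to the deposited coordinates of the gene cannot be told, because their build is not given.

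Sequencing depth was similar in all rats but one, with total counts of 14922973 to 16641954 in 8 rats and 27161496 in G27. The TMM scaling factors were 0.731 to 0.799 in normal, 1.21 to 1.58 in DEN model and 0.864 to 0.942 in PZH administration rats, so directions below are relative to this scaling. Scaling by library totals alone would move the median log2 value over all genes from 0.029 to 0.89 between DEN model and normal rats, from 0.0053 to -0.67 between PZH and DEN model rats, and from -0.020 to 0.21 between PZH and normal rats. It would also turn the split of calls from 25.3% higher and 20.5% lower to 57% and 6.72% with DEN, and from 8.72% and 10.3% to 3.9% and 39.9% after PZH. Hepatocyte markers fell with DEN (5 of 8 called lower, 62.5% beside 20.5% of all genes). Their summed level was 128126 to 135273 CPM (read counts scaled to an equal library size) in normal, 20117 to 48399 CPM in DEN model and 92407 to 130331 CPM in PZH administration rats. The part of this shift in the marker results was not tested.

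The question of the first comparison, DEN model against normal, was which genes accompany the path from fibrosis to liver cancer. Cd3e, Cd4 and Cd8a were higher in the DEN model group, while the cytotoxic genes Nkg7, Prf1 and Gzmb and the B cell gene Cd79b were called in neither direction. Of the 9 markers, 7 had enough reads to be tested, and 3 of these 7 were called higher, where 45.8% of all 14255 genes tested were called, 25.3% higher and 20.5% lower. None of the markers was called lower by edgeR's quasi-likelihood test, by DESeq2 or at an unadjusted p under 0.05. The 3 DEN model rats all lay above the 3 normal rats in 5 of the 9 markers, Cd3d, Cd3e, Cd4, Cd8a and Nkg7 (31.4% of all tested genes) and all below them in 1, Gzmb (27.4% of all tested genes). No marker met the study's thresholds, a log2 fold change beyond 2 in either direction with P under 0.001, which 12.3% of all genes tested met.

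Cd4, the coreceptor for MHC class II, was at 29.1, 20.0 and 40.4 CPM in N1, N3 and N12, at 82.3, 70.1 and 81.7 CPM in M13, M17 and M24, and at 33.1, 37.1 and 35.1 CPM in G27, G28 and G42. The DEN model rats stood apart from both other groups, which overlapped. Its mean rose from 29.9 ± 10.2 CPM to 78.03 ± 6.90 CPM (SD, n = 3 each), which is 1.40 on the log2 scale (standard error, SE, 0.25, adjusted p = 0.0027, edgeR's quasi-likelihood test). Cd4 was the only marker called under every change of scaling, filter or left-out rat in this comparison, though it missed the study's fold threshold, and its spread within the DEN model group was the smallest of the members relative to the mean.

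Cd3e encodes the epsilon chain of CD3. Its level was 0.234, 0.671 and 1.45 CPM in N1, N3 and N12, 4.16, 2.13 and 14.9 CPM in M13, M17 and M24, and 0.938, 2.50 and 0 CPM in G27, G28 and G42. All DEN model rats were above all normal rats, but M24 alone carried 70.4% of the group's summed level, and the PZH rat G28 lay above M17. The counts behind these values were 3 to 19 in normal rats, 43 to 359 in DEN model rats and 0 to 36 in PZH administration rats. The 0 in G42 allows up to 3 counts, or 0.213 CPM. The log2 fold change with DEN was 3.17 (SE 0.84, adjusted p = 0.015, edgeR's test). Without M24 it was 2.01 (adjusted p = 0.049, edgeR), and the call was lost without N1 (log2 fold change 2.72, adjusted p = 0.057) or N3 (3.07, adjusted p = 0.06).

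Cd8a, the alpha chain of the class I coreceptor, was at 2.34, 1.84 and 2.82 CPM in N1, N3 and N12, at 5.73, 3.41 and 15.3 CPM in M13, M17 and M24, and at 1.83, 3.62 and 1.49 CPM in G27, G28 and G42. As for Cd3e, the DEN model rats lay above the normal rats, M24 was far above the rest, and G28 was above M17. The log2 fold change with DEN was 1.82 (SE 0.54, adjusted p = 0.024, edgeR's test). This call did not hold without M24 (log2 fold change 0.99, adjusted p = 0.089, edgeR), nor without N1, N3 or N12 in turn (1.79, 1.67 and 1.97, with adjusted p = 0.077, 0.083 and 0.053).

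Cd3d, the delta chain of CD3, had too few reads to be tested in any comparison. Its counts were 4, 0 and 3 in the normal rats, 10, 7 and 39 in M13, M17 and M24, and 15, 2 and 0 in G27, G28 and G42. The DEN model rats were above the normal rats by a small number of reads, and M24 was again the highest. In the fit without a filter on low counts its log2 fold change with DEN was 2.13 (SE 1.01, adjusted p = 0.15, edgeR).

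**Figure D1:**
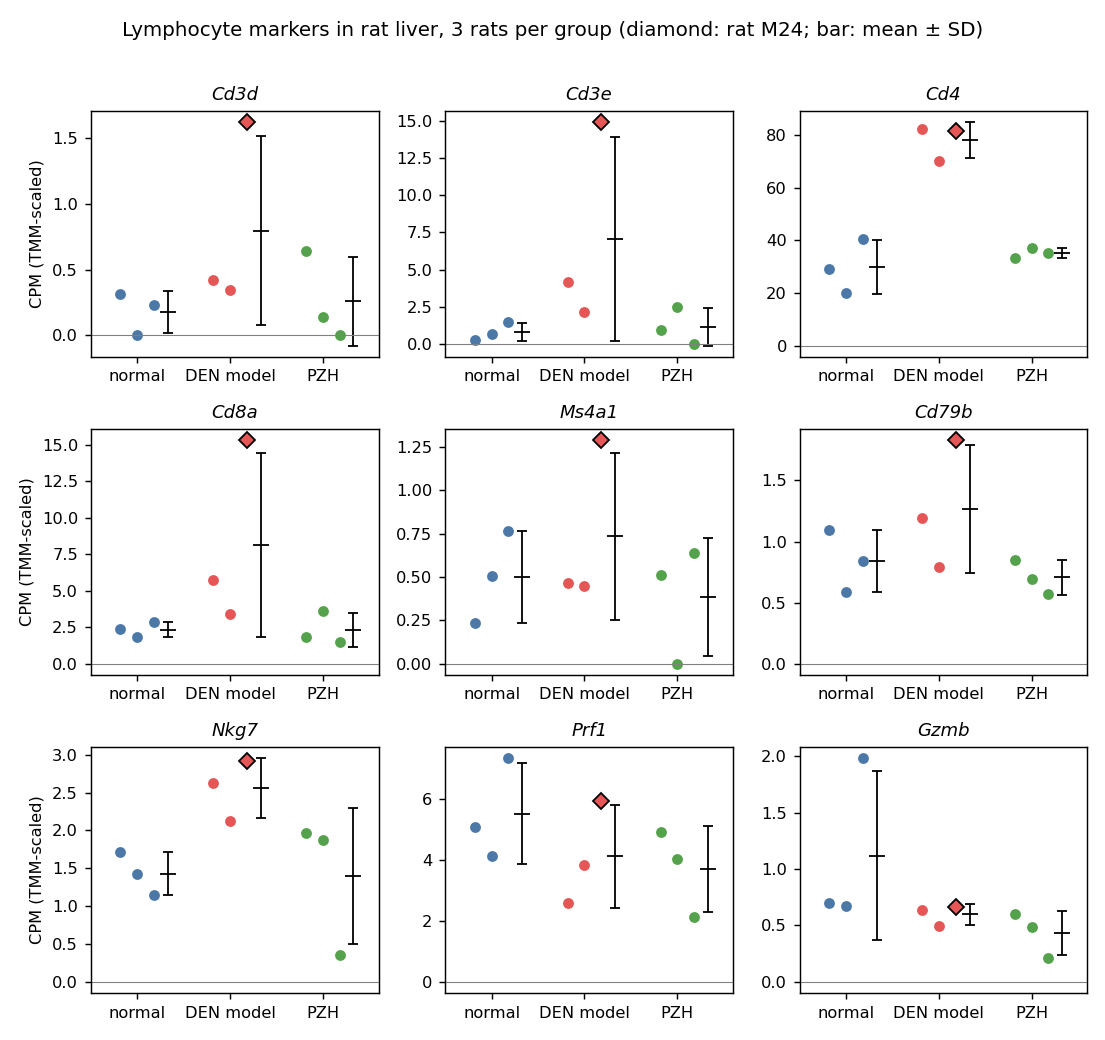
CPM of each of the 9 markers (vertical axis, linear, with a line at 0) in the 3 normal, 3 DEN model and 3 PZH administration rats, with points for rats, a diamond for M24, and a bar for mean ± SD. Cd4 separates the 3 DEN model rats (70.1 to 82.3 CPM) from the other 6, while in Cd3e and Cd8a M24 lies far above the other DEN model rats (14.9 and 15.3 CPM), and Prf1 overlaps in all groups.

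The B cell genes were near the limit of detection. Ms4a1 (CD20) had 3, 6 and 10 counts in N1, N3 and N12, 11, 9 and 31 counts in M13, M17 and M24, and 12, 0 and 9 counts in G27, G28 and G42, and was not tested in any comparison. All 3 groups overlapped. Cd79b, a signalling chain of the B cell receptor, was at 1.09, 0.587 and 0.839 CPM in N1, N3 and N12, at 1.19, 0.792 and 1.83 CPM in M13, M17 and M24, and at 0.853, 0.695 and 0.569 CPM in G27, G28 and G42. M24 was the highest of all rats, and M17 lay within the normal range. The log2 fold change with DEN was 0.62 (SE 0.49, adjusted p = 0.33, edgeR), which becomes 1.501 (adjusted p = 0.039) when only library totals are used for scaling.

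Among the cytotoxic genes, Nkg7, the granule protein, was at 1.72, 1.43 and 1.14 CPM in N1, N3 and N12, at 2.63, 2.13 and 2.91 CPM in M13, M17 and M24, and at 1.96, 1.88 and 0.356 CPM in G27, G28 and G42. The DEN model rats were above every other rat, yet the fitted log2 value of 0.86 (SE 0.36, adjusted p = 0.085, edgeR's test) missed the threshold. It passed with library totals (1.73, adjusted p = 0.0067) and when each rat had to have 10 counts or more (0.96, adjusted p = 0.028).

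Prf1, the pore-forming protein of the granules, was at 5.07, 4.11 and 7.32 CPM in N1, N3 and N12, at 2.59, 3.81 and 5.91 CPM in M13, M17 and M24, and at 4.90, 4.03 and 2.13 CPM in G27, G28 and G42. The groups overlapped in every comparison. The log2 fold change with DEN was -0.41 (SE 0.38, adjusted p = 0.41, edgeR), and it turned to 0.47 with library totals. Gzmb, a serine protease that starts apoptosis in the target cell, had 9, 8 and 26 counts in N1, N3 and N12, 15, 10 and 16 in M13, M17 and M24, and 14, 7 and 3 in G27, G28 and G42. After scaling, all DEN model rats (0.495 to 0.665 CPM) lay just below all normal rats (0.671 to 1.98 CPM), and the fitted log2 value was -0.88 (SE 0.56, adjusted p = 0.23, edgeR).

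**Figure D2:**
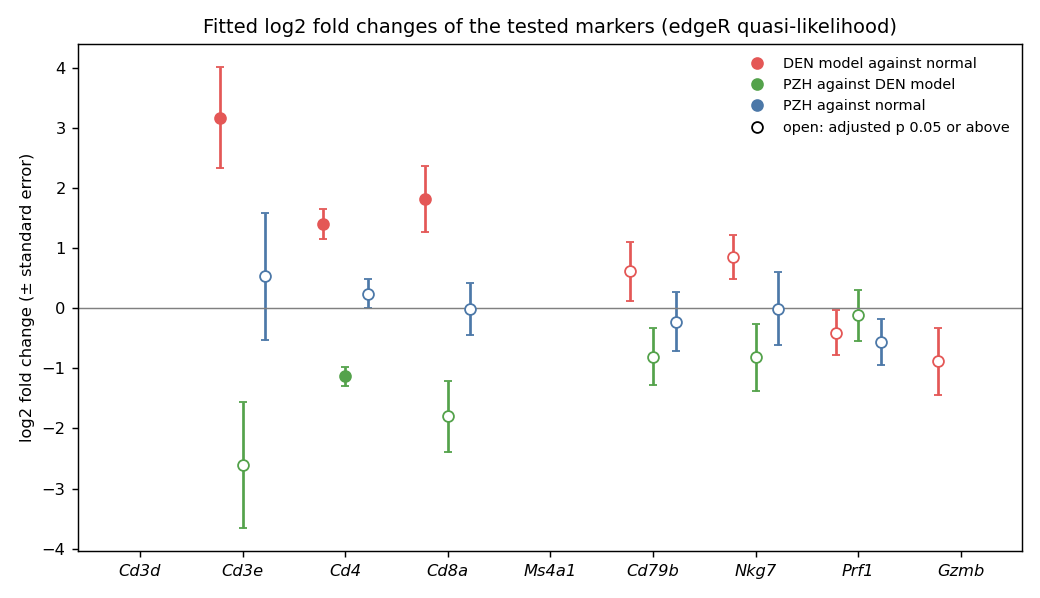
Fitted log2 fold changes (vertical axis) with standard errors for the markers tested in each of the 3 comparisons, filled where the adjusted p was under 0.05. Filled points are Cd3e, Cd4 and Cd8a with DEN (3.17, 1.40 and 1.82) and Cd4 after PZH (-1.13), and Cd3d and Ms4a1 have no points because they were not tested.

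The second comparison asked what differed when DEN-treated rats also received PZH. Cd4 was lower in the PZH administration group than in the DEN model group, and no other marker was called. Of 6 markers tested, 1 was called lower, where 19.1% of all 14272 genes tested were called, 10.3% lower and 8.72% higher. None was called higher by edgeR, by DESeq2 or at an unadjusted p under 0.05, and all 6 fitted values were below 0. In 2 of the 9 markers, Cd4 and Nkg7, every PZH rat lay below every DEN model rat (22.5% of all tested genes). None met the study's thresholds, which 2.43% of all genes tested met. The mean of Cd4 after PZH was 35.1 ± 2.002 CPM (SD, n = 3), which is -1.13 on the log2 scale relative to the DEN model group (SE 0.16, adjusted p = 0.0092, edgeR's test).

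Cd8a missed the threshold in this comparison, at -1.80 on the log2 scale (SE 0.59, adjusted p = 0.068, edgeR). It was called lower by DESeq2 (-1.79, adjusted p = 0.012), with all 9 rats in one fit (-1.82, adjusted p = 0.039 by edgeR) and without M17 (-2.18, adjusted p = 0.025). Without M24 it was -0.96 (adjusted p = 0.26). For Cd3e the value was -2.60 (SE 1.05, adjusted p = 0.12, edgeR) with M24 and -1.43 (adjusted p = 0.43) without it. The fitted log2 fold changes of Cd79b, Nkg7 and Prf1 were -0.80, -0.82 and -0.12, with adjusted p of 0.26, 0.33 and 0.87 in edgeR's test. Gzmb was not tested here, and its mean was 0.599 ± 0.0914 CPM in DEN model and 0.432 ± 0.197 CPM with PZH (SD, n = 3 each).

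Between PZH administration and normal rats, 0 of 6 tested markers were called by edgeR's quasi-likelihood test, 0 by DESeq2 and 0 at an unadjusted p under 0.05, where 5.21% of all 13348 genes tested were called by edgeR, 4.07% higher and 1.15% lower. None met the study's thresholds, which 2.32% of all genes tested met. The fitted value farthest from 0 among the 6 was that of Prf1, -0.56 (SE 0.38, adjusted p = 0.5). Cd4 was at 0.25 (SE 0.25, adjusted p = 0.68) and Cd8a at -0.01 (SE 0.44, adjusted p = 0.99). Gzmb, not tested, was the marker without overlap, with 0.213 to 0.597 CPM in PZH rats below 0.671 to 1.98 CPM in normal rats (10.6% of all tested genes were lower without overlap). These rats also enter the comparisons above, so the values are not independent of them.

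Within groups, the same rats often ranked highest or lowest. M24 was the highest DEN model rat in 8 of the 9 markers, the exception being Cd4, and M17 was the lowest in 8, the exception being Prf1. In the normal group N12 was the highest in 6 and N3 the lowest in 6. In the PZH administration group G42 was the lowest in 7, with Cd4 and Ms4a1 the exceptions. M24 and G42 were also the highest and lowest of their groups in the summed level of the common leukocyte genes described next. The order of DEN model rats was not limited to leukocyte genes. M24 had the lowest and M17 the highest hepatocyte sum (20117 and 48399 CPM). For a list of stellate and biliary genes M24 was the highest and M17 the lowest (3170 and 1014 CPM). The share of all genes with the same order is not given here. The part of overall leukocyte RNA or of other tissue RNA in this order was not tested.

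A list of genes shared by most white blood cells (among them Ptprc, which encodes CD45, and Coro1a) was used to set the markers beside leukocyte RNA as a whole. Of 11 tested genes of this list, 10 were called higher with DEN (90.9%, beside 25.3% of all genes) and 5 lower after PZH (45.5%, beside 10.3%). The sum over the 12 genes present was 193 to 266 CPM in normal, 485 to 778 CPM in DEN model and 255 to 387 CPM in PZH administration rats. Lcp1, an actin-bundling protein of leukocytes with the highest mean of them over the 9 rats, rose by 2.14 on the log2 scale with DEN (SE 0.25, adjusted p = 0.00041, edgeR). Without M24, 8 of the 11 were called higher with DEN and 0 lower after PZH. In these fits 34.5% and 5% of all genes were called in either direction, where 45.8% and 19.1% were with all rats. The same shares apply to the other list counts without M24 below.

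On a scale relative to these genes most genes shift, because the leukocyte sum itself moved. Over all genes tested, the median log2 difference relative to the leukocyte sum was -1.41 with DEN and 0.93 after PZH, 85.6% of genes were below 0 with DEN and 12.2% after PZH. Counted per 1000, 69.7% of all genes tested were lower with DEN without overlap and 57.6% were higher after PZH without overlap. Between PZH administration and normal rats the median was -0.49, and 25.9% of genes were lower per 1000 without overlap. The markers' values below are a description beside this background.

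Per 1000 counts of the leukocyte genes, Cd4 had 131 ± 36.4 counts in normal, 128 ± 20.7 in DEN model and 113 ± 21.5 in PZH administration rats (SD, n = 3 each). The 3 groups overlapped, and the log2 difference between DEN model and normal rats was -0.0091 (exact permutation p = 1). Prf1 had 24.0 ± 5.11 counts per 1000 in normal, 6.57 ± 2.004 in DEN model and 11.5 ± 3.86 in PZH administration rats (SD, n = 3 each). Its 3 groups did not overlap on this scale. The same held for most genes in the comparisons with the DEN model group. Between PZH and normal rats 25.9% of genes were lower without overlap. The log2 difference was -1.84 with DEN and 0.83 after PZH, beside medians of -1.41 and 0.93 over all genes, each at exact permutation p = 0.1, the smallest that 3 rats against 3 can give (adjusted p = 0.25 over 27 comparisons).

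Gzmb had 4.69 ± 2.43 counts per 1000 in normal, 0.975 ± 0.105 in DEN model and 1.34 ± 0.551 in PZH administration rats (SD, n = 3 each). DEN model and PZH rats both lay below normal rats and overlapped each other, although with the pseudocount of 0.5 CPM the latter pair did not overlap (log2 difference 0.71, exact permutation p = 0.1). Cd3e had 3.21 ± 2.13 counts per 1000 in normal, 10.1 ± 7.93 in DEN model and 3.17 ± 3.24 in PZH administration rats, and Cd8a had 10.3 ± 2.02, 12.1 ± 6.71 and 7.04 ± 1.996 (SD, n = 3 each). For both of them the groups overlapped throughout. Cd79b was at 3.81 ± 1.64 counts per 1000 in normal and 1.98 ± 0.36 in DEN model rats without overlap (SD, n = 3 each), at exact permutation p = 0.1 on the log2 scale. On that scale 8 of the 9 differences with DEN were below 0 (85.6% of all genes tested), a number that drops to 5 with a pseudocount of 0.1 CPM in place of 0.5. The 3 that turned were Cd3d (0.20), Cd4 (0.0026) and Cd8a (0.069).

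**Figure D3:**
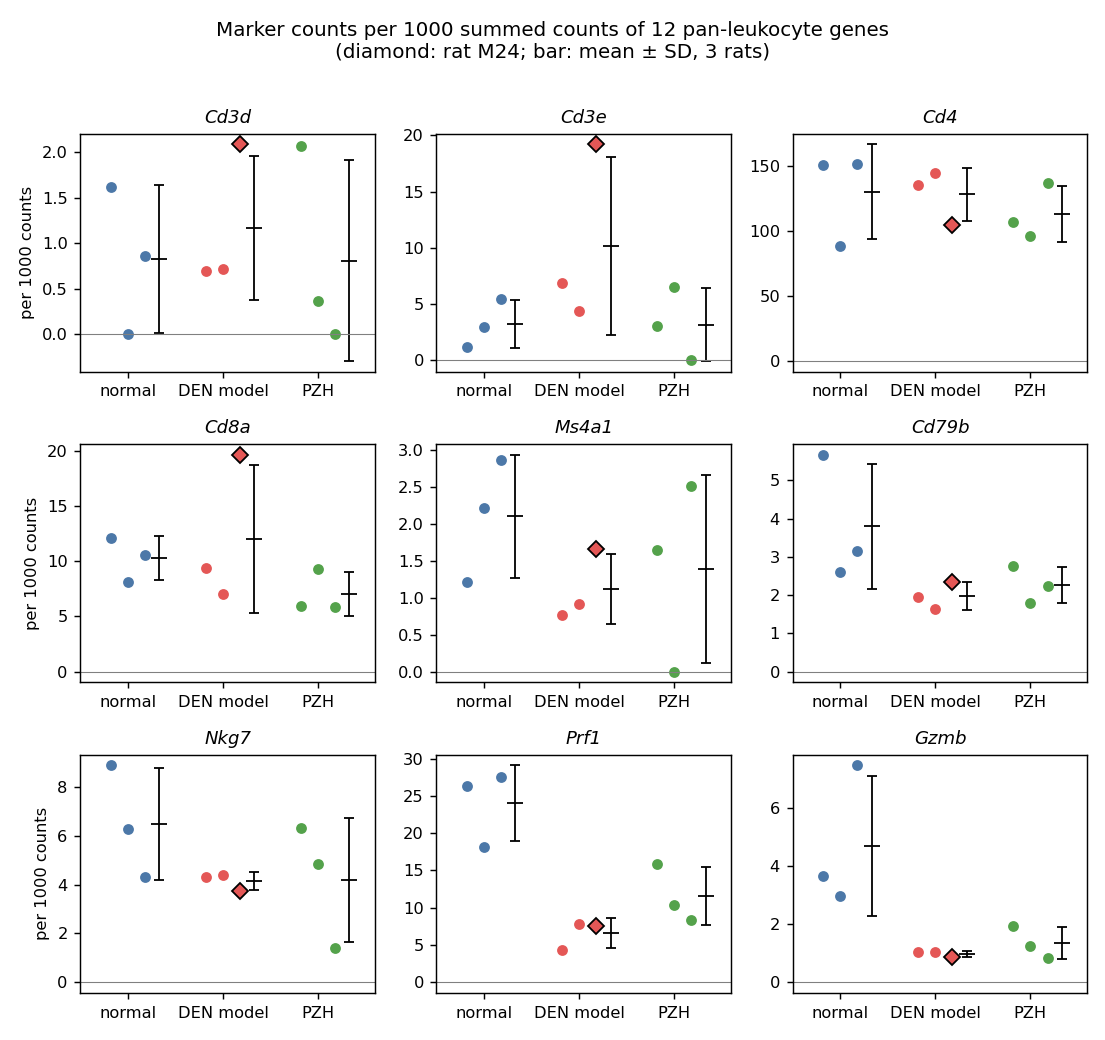
Counts of each marker per 1000 summed counts of 12 pan-leukocyte genes (vertical axis, linear, with a line at 0) by group, with points for rats, a diamond for M24, and bars for mean ± SD. Cd4 overlaps across the groups, with means of 113 to 131, Prf1 has means of 24.0, 6.57 and 11.5 in normal, DEN model and PZH administration rats, and Cd3e and Cd8a spread widely among DEN model rats.

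Other T cell genes were also higher with DEN. Of 29 further T cell genes, 20 were tested and 15 were called higher (75%, beside 25.3% of all genes tested), with a median log2 fold change of 2.31 beside 0.029 for all genes. None was called lower by edgeR, nor at an unadjusted p under 0.05, and DESeq2 called 1 lower. Without M24 the number called higher was 11 of 20, where 34.5% of all genes were called in either direction. The 3 highest were Ctla4, an inhibitory receptor of activated and regulatory T cells, Cd28, the costimulatory receptor, and Bcl11b, a T lineage transcription factor. Ctla4 was at 1.16 ± 0.878 CPM in DEN model rats and had at most 1 count in a normal rat (adjusted p = 0.0058, edgeR). Cd28 was at 1.46 ± 0.778 CPM against at most 2 counts in a normal rat (adjusted p = 0.0045), and Bcl11b rose from 0.372 ± 0.189 to 4.07 ± 3.79 CPM (adjusted p = 0.01, SD, n = 3 each). Between PZH administration and normal rats only 12 of the 29 genes had enough reads to be tested. Some genes, Ctla4 and Cd28 among them, thus passed the filter only with the DEN model rats, where they were high. The shares called in the comparisons with the DEN model group are therefore partly set by the filter.

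After PZH, 4 of the 20 T cell genes were called lower by edgeR (20%, beside 10.3% of all genes), with a median log2 fold change of -1.41 over the list. None was called higher by edgeR, by DESeq2 or at an unadjusted p under 0.05, and DESeq2 called 7 lower. Among them Zap70, a kinase, and Lat, an adaptor, act directly below the T cell receptor. Their log2 fold changes were -1.89 and -1.81 (adjusted p = 0.018 and 0.016, edgeR). Lat fell from 5.39 ± 0.124 to 1.51 ± 0.549 CPM (SD, n = 3 each) and varied little among DEN model rats. Without M24 none of the 20 was called, while the number over all genes went from 2722 to 725.

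The B cell list gave 5 of 13 tested genes higher with DEN (38.5%, beside 25.3% of all genes) and 3 of 12 lower after PZH (25%, beside 10.3%), with 0 called the other way by edgeR, by DESeq2 or at an unadjusted p under 0.05. Its median log2 fold changes were 1.32 and -0.80. The leading genes were Blnk, an adaptor of the B cell receptor, Pou2af1, a transcriptional coactivator, and Cd40, a costimulatory receptor that other antigen-presenting cells also carry. Their log2 fold changes with DEN were 3.03, 2.84 and 2.20 (adjusted p = 0.0024, 0.0057 and 0.0074, edgeR). After PZH the lowest were Pou2af1, Blnk and Cd37, at -2.59, -1.45 and -1.17 (adjusted p = 0.026, 0.018 and 0.017). Without M24 the list had 5 of 14 genes higher with DEN and 0 lower after PZH. Of all genes, 34.5% and 5% were called in these fits in either direction. Pou2af1 was not tested between PZH and normal rats, so it too passed the filter only with the DEN model rats. Of the plasma cell list, 1 of 6 genes was called higher with DEN (16.7%, beside 25.3% of all genes), and 0 of 6 without M24. The gene called was the transcription factor Prdm1 (1.29, adjusted p = 0.03, edgeR), which other lymphocytes use too and which also stands on the cytotoxic list. The median of this list was 0.81 with DEN and -0.52 after PZH. After PZH 0 of 6 plasma cell genes were called by edgeR, where DESeq2 called 1 lower and 1 had an unadjusted p under 0.05.

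In the cytotoxic and NK list, 6 of 18 tested genes were called higher with DEN (33.3%, beside 25.3% of all genes) and 1 lower (5.56%, beside 20.5%), and 14 of the 18 fitted values were above 0. At an unadjusted p under 0.05, 7 were higher and 2 lower with DEN. Over the list the log2 median was 0.59, and -0.64 after PZH. The highest were Cd244, a receptor of NK and cytotoxic T cells, Runx3, a transcription factor of cytotoxic T cells, and Cst7, which encodes cystatin F, at log2 fold changes of 2.17, 2.04 and 1.997 (adjusted p = 0.031, 0.016 and 0.011, edgeR). The gene called lower was Gzma, another granzyme, which fell from 1.79 ± 0.953 to 0.599 ± 0.0947 CPM (SD, n = 3 each), or -1.55 on the log2 scale (adjusted p = 0.037, edgeR). The 4 fitted values below 0 were those of Gzma, Eomes (-1.37), Ncr1 (-1.26) and Klrg1 (-0.40), names given after their values were seen. With library totals 0 genes of the list were lower, and Gzma was at -0.70 (adjusted p = 0.3). After PZH 3 of 16 were called lower (18.8%, beside 10.3% of all genes), Cst7, Runx3 and Klrk1 (an activating NK receptor), at -2.11, -1.47 and -1.09 (adjusted p = 0.042, 0.027 and 0.026). Without M24 the numbers were 3 of 18 higher and 0 lower with DEN, and 0 of 16 after PZH. Of all genes, 34.5% and 5% were called in these fits in either direction. Between PZH administration and normal rats edgeR called 0 genes of the T cell, B cell, plasma cell and cytotoxic lists, with 12, 10, 5 and 16 tested. At an unadjusted p under 0.05 there were 3 and 1 higher in the T and B cell lists and 1 lower each in the plasma cell and cytotoxic lists, and DESeq2 called 1 T cell gene higher and 1 plasma cell gene lower.

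**Figure D4:**
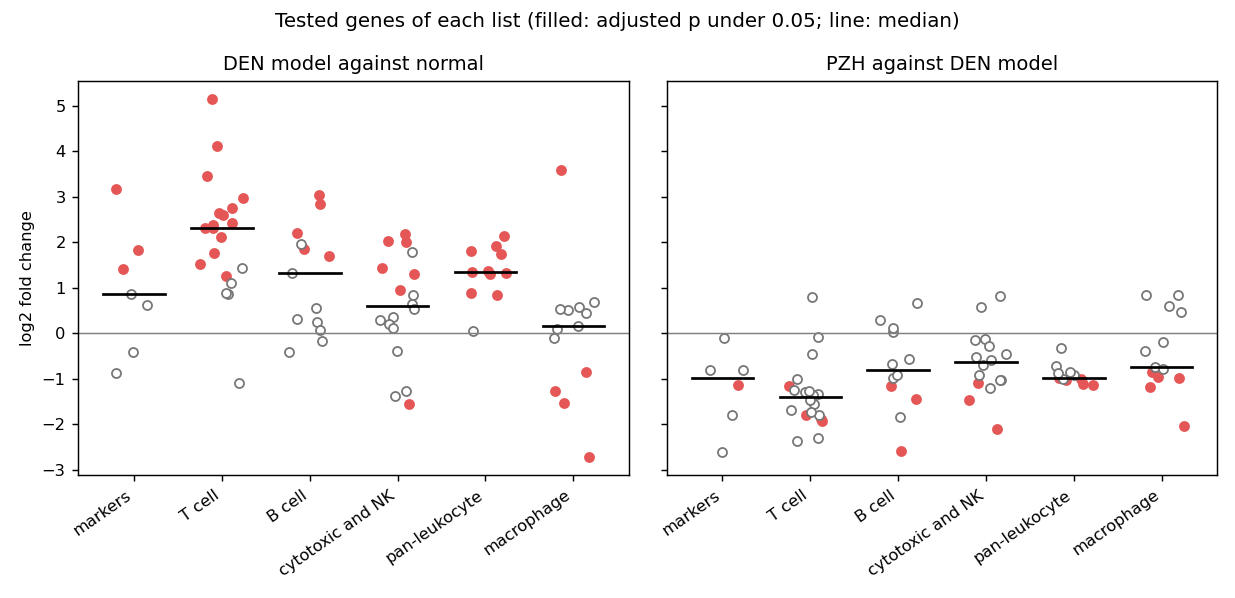
Fitted log2 fold changes (vertical axis) of the tested genes in 6 gene lists, for DEN model against normal (left) and PZH against DEN model (right), filled where the adjusted p was under 0.05 and with a line at the median. With DEN the T cell list lies highest of the 6 lists shown, with a median of 2.31. The cytotoxic and NK list has a median of 0.59 with called genes on both sides of 0, and the macrophage list a median of 0.16. Lists not drawn had higher medians with DEN, at 3.37 for granulocyte, 3.58 for stellate and biliary and 4.50 for mast cell genes.

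Since Cd4 is also a macrophage gene in rats, a macrophage list was set beside it. With DEN, 1 of its 13 tested genes was called higher (Lyz2) and 4 lower (Vsig4, Clec4f, Cd14 and Marco), and after PZH 5 were called lower (Csf1r, Adgre1, Lyz2, C1qb and Cd68), names given after their values were seen. These are 7.69%, 30.8% and 38.5% of the tested list, beside 25.3%, 20.5% and 10.3% of all genes tested. With library totals the numbers with DEN were 8 higher and 1 lower. Of the 13 fitted values with DEN, 8 were above 0. Without M24, 1 gene of the list was called lower after PZH, where 5% of all genes were called in either direction. The summed level of the list was 940 to 1539 CPM in normal, 1150 to 1468 CPM in DEN model and 553 to 1130 CPM in PZH administration rats, and none of the 13 genes was at 0 in every rat of a group. Lyz2, a lysozyme of macrophages and granulocytes, rose by 3.57 on the log2 scale with DEN (SE 0.39, adjusted p = 0.00032, edgeR). Clec4f, a Kupffer cell receptor with the highest mean of the list over the 9 rats, though not in the DEN model group, fell by 1.28 on the log2 scale with DEN (SE 0.30, adjusted p = 0.009, edgeR), or by 0.44 with library totals (adjusted p = 0.21). The part of macrophages in the Cd4 result was not tested.

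Levels of different genes were compared per transcript length, in FPKM, which the authors scaled without the TMM factors. Cd4 was the highest marker in every group, at 13.4 ± 5.04 FPKM in normal, 64.1 ± 13.5 FPKM in DEN model and 18.3 ± 1.76 FPKM in PZH administration rats (SD, n = 3 each), and its range did not touch that of the next marker. In normal rats Prf1 came next, at 1.71 ± 0.572 FPKM, followed by Cd8a (1.31 ± 0.327 FPKM) and Nkg7 (1.26 ± 0.264 FPKM), neighbours whose ranges overlapped. In DEN model rats the next were Cd8a (8.83 ± 7.56 FPKM), Cd3e (4.78 ± 4.97 FPKM) and Nkg7 (4.19 ± 1.16 FPKM), each overlapping its neighbour, with Prf1 in the fifth place at 2.35 ± 1.17 FPKM and Gzmb last at 0.52 ± 0.141 FPKM. In PZH administration rats the order after Cd4 was Cd8a, Nkg7 and Prf1, at 1.53 ± 0.779, 1.43 ± 0.908 and 1.32 ± 0.464 FPKM, neighbours again overlapping.

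The ratio of Cd4 to Cd8a in FPKM was 8.62 to 11.4 in normal rats and 8.15 to 18.6 in PZH administration rats. In the DEN model group it was 11.4 in M13, 16.3 in M17 and 4.24 in M24, so the rat with the most Cd8a and Cd3e had the lowest ratio of all 9. Cd3e exceeded Cd3d in FPKM by a ratio of 1.97 to 3.13 in the 3 DEN model rats, and the counts of the pair in the other groups were too low for a stable ratio.

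By distance of log2(CPM + 0.5) over the 9 rats, after removing each gene's mean, the tested genes nearest to Cd3e were LOC679149 (distance 1.71), Apobec3 (1.75) and Ccnd2 (1.77). Those nearest to Cd79b were Stom (0.224), Rae1 (0.422) and Foxp4 (0.425), and those nearest to Nkg7 were Osbpl7 (0.508), Dcbld1 (0.597) and Smurf1 (0.613). None of these 9 genes was on the lymphocyte lists.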

How the data were processed

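Liver mRNA of 9 male rats was sequenced, 3 rats in each group with 1 library per rat. The authors deposited whole-number read counts per gene and rat, without normalization, and FPKM values, which scale the reads for transcript length and library size. Per the labels, fastp, HISAT2 2.1.0, StringTie 1.3.3b and edgeR 3.30.3 were among the authors' tools. The read counter and genome build are not given in the sources used here. Deposited columns of group values, fold changes, P and Q values, which are the authors' own comparisons, were not used. No pair of libraries held identical counts.

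Counts were analysed in R 4.3.3 with edgeR 4.0.16. For each comparison of 2 groups, genes kept by filterByExpr in the 6 rats entered a quasi-likelihood test after TMM scaling, p-values were adjusted by Benjamini-Hochberg across every gene tested, and an adjusted p under 0.05 made a call. The standard error is the absolute fitted log2 fold change divided by the square root of F. CPM per rat uses TMM factors from all 9 rats. Total counts ran from 14922973 to 27161496, and 3 counts, the floor used for a value of 0, equal 0.125 to 0.252 CPM, which covers counting error only. Nothing in the labels names separate experiments within a group, so p-values measure the spread between these rats. Levels relative to common leukocyte genes were compared on log2(CPM + 0.5) with an exact two-sided permutation test.

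The 9 markers, the companion lists and the naming rule were chosen with earlier results of these data known. The rule names every marker, the 3 highest and 3 lowest called genes of each lymphocyte list in the comparisons with the DEN model group, the gene of each other list with the highest mean CPM over the 9 rats, and the 3 genes nearest in pattern to Cd3e, Cd79b and Nkg7. Some list genes that the rule names are not reported here. Library totals, DESeq2 1.42.0, a fit with every gene kept, a minimum of 10 counts in each rat, all 9 rats fitted together, the study's thresholds (absolute log2 fold change above 2 and unadjusted P under 0.001), an adjusted p under 0.05 with an absolute log2 fold change above 1, other pseudocounts (0.1 and 1), Ptprc alone as leukocyte reference and leaving out each rat were the alternatives. The list counts without rat M24, or with other scaling, the counts per 1000 leukocyte counts and the all-gene values on the relative scales were added after seeing the data. Companion lists were not counted with any other rat left out. The fits were tested on simulated data, with a log2 fold change of 2 put into 200 genes of each comparison. There edgeR recovered 79.5% to 81% of these genes with 4 to 15 false calls. DESeq2 recovered 85.5% to 86% with 39 to 45 false calls. Only these 200 genes changed in the simulation, in both directions, whereas 45.8% of genes tested were called with DEN. It therefore cannot judge the calls under so broad a shift.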

Additional observations from a re-analysis of the deposited data

How the results depend on the processing

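No paired analysis was possible because the rats' numbers in the labels are not shared between groups. With library totals in place of TMM factors, 5 markers in place of 3 were called with DEN and 4 in place of 1 after PZH. Those fits called 63.7% and 43.8% of all genes tested. At the study's thresholds 0 were called in both. DESeq2 and the fit of all 9 rats each called 2 after PZH, where they called 26.5% and 19.95% of all genes. Leaving out 1 rat gave 1 to 3 markers with DEN and 1 to 2 after PZH, with Cd4 among them in each of these fits. Over all genes, leaving out 1 rat gave 4724 to 6790 calls with DEN, 271 to 3319 after PZH (2722 with all rats, 271 without M13 and 725 without M24) and 207 to 1326 between PZH and normal rats (696 with all rats). Prf1 changed sign with library totals in the DEN comparison (0.47 in place of -0.41), and ran from -0.39 to 0.25 after PZH over the rats left out. Between PZH and normal rats, some signs turned, none of them called. Cd8a (-0.01) was at 0.21 with library totals, at 0.024 with a minimum of 10 counts in each rat and at -0.47 to 0.21 without 1 rat. Nkg7 (-0.0074) was at 0.20 with library totals and at -0.35 to 0.43 without 1 rat, and Cd3e (0.53) at -0.61 to 1.302 without 1 rat. No marker was called between PZH and normal rats under any alternative. Depth limits Cd3d, Ms4a1 and Gzmb most, which had no more than 39 counts in any rat. The cause of these changes was not tested.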

Other observations

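Lists of other liver and immune cells were counted in the same fits. Over all genes tested, 25.3% were called higher and 20.5% lower with DEN, and 8.72% higher and 10.3% lower after PZH. Between PZH administration and normal rats the shares were 4.07% higher and 1.15% lower. Of 13 granulocyte genes 6 were tested, and all 6 were called higher with DEN and lower after PZH. Only 3 had enough reads to be tested between PZH and normal rats. Mmp8, Mmp9 and Cxcr2 thus passed the filter only with the DEN model rats, so these counts are partly set by the filter. Without M24 3 of 8 tested genes of the list were lower after PZH. S100a9, a neutrophil calcium-binding protein with the highest mean of the list over the 9 rats, was at 1.13 ± 0.257, 8.78 ± 4.16 and 1.27 ± 0.681 CPM in normal, DEN model and PZH administration rats (SD, n = 3 each). Of 8 tested mast cell genes, 6 were called higher with DEN and 1 lower, and 0 were called after PZH by edgeR, where DESeq2 called 1 lower and 1 had an unadjusted p under 0.05. Mcpt1, a mast cell protease, was at 0.412 ± 0.367 CPM in normal and 29.5 ± 6.04 CPM in DEN model rats (SD, n = 3 each, adjusted p = 0.00016, edgeR). Kit, with the highest mean of the list over the 9 rats but not within the normal or the DEN model group, was not called in any comparison (log2 fold change 0.47 with DEN, adjusted p = 0.063, edgeR). Mast cell genes were also higher in PZH administration than in normal rats in 3 of 6 tested and lower in 1 (Hdc). The dendritic cell list had 2 of 6 genes called higher with DEN (Itgax and Itgae, 1 without M24), and of 7 tested after PZH 1 was higher (Siglech) and 1 lower (Itgax). Itgax, which encodes CD11c, rose from 1.43 ± 0.988 to 17.9 ± 2.63 CPM with DEN and was at 7.62 ± 1.29 CPM with PZH (SD, n = 3 each). Of the stellate and biliary list, 9 of 10 genes were called higher with DEN and 8 lower after PZH (5 without M24), with Col3a1, a fibrillar collagen, at log2 fold changes of 2.62 and -1.35. Between PZH administration and normal rats 7 of the 10 were still called higher and 0 lower, with Col3a1 at 1.23 (adjusted p = 0.014, edgeR). Alb, the hepatocyte gene with the highest mean over the 9 rats, had log2 fold changes of -2.09 with DEN (adjusted p = 0.037) and 1.91 after PZH (adjusted p = 0.05, not called).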
